A study of Mus musculus with 12 samples.

Results

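The genes described here encode small subunit processome and pre-40S factors, the proteins that assemble, process and modify the RNA of the small (40S) ribosomal subunit. The set was chosen by name, as 39 genes of 40S assembly and of 18S rRNA processing and modification, and all 39 were found among the 31091 genes of the deposited postnatal day 3 expression table. The rule used gene names alone. RNA was sequenced from mouse granule cell progenitors, which divide in the outer layer of the young cerebellum and give rise to its granule neurons. At P3 there were 3 libraries labelled wild type, here called control, and 3 in which Znhit3 was conditionally knocked out (cKO). The series holds 12 samples in 4 groups, and its P6 samples were not analysed here. The sources used here name no Cre driver, strain or number of animals per library, and give no allele for the controls beyond wild type. Nothing states that replicates came from separate animals, so p-values measure the spread between these libraries, which may be technical.

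Small subunit assembly starts on the nascent rRNA precursor in the nucleolus. The UTP-A complex binds the leading spacer first, UTP-B and the U3 snoRNP follow, and the Mpp10 complex and many further proteins build a large particle, the small subunit processome, inside which the precursor is cut and folded. Helicases and GTPases then dismantle the processome, enzymes modify 18S rRNA, and a smaller group of factors accompanies the pre-40S particle to the cytoplasm, where the last cut is made. Znhit3 is known as a factor in the assembly of box C/D snoRNPs, the class of particle to which U3 belongs.

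Levels are in FPKM, the number of fragments divided by gene length and by library size. Each difference is the cKO mean minus the control mean of log2(FPKM + 1), with its standard error (SE), from limma fitted to the 13538 genes that averaged 1 FPKM or more. A gene was called where the Benjamini-Hochberg adjusted p over all these genes was under 0.05. Znhit3 itself was at 9.15, 8.62 and 8.58 FPKM in control and 4.03, 4.01 and 4.57 FPKM in cKO. The cKO level was 47.8% of control, and the groups did not overlap (difference -0.91, SE 0.06, limma adjusted p = 0.00024). The exact permutation test (two-sided) cannot go below 0.1 with 3 libraries against 3, and gave p = 0.1. Libraries held 29119803 to 52961445 reads counted on genes, so that 3 reads on a gene of 1 kb corresponded to 0.0566 to 0.103 FPKM. Markers of granule progenitors summed to 1088 to 1166 FPKM in control and 873 to 892 FPKM in cKO, with 4 of 9 called lower, while Atoh1, the defining factor of the lineage, was at 37.5 and 35.0 FPKM and was not called. Markers of other cell types were present in every library and moved too. Endothelial markers summed to 125 to 136 FPKM in control and 221 to 238 FPKM in cKO (8 of 8 called higher), GABAergic interneuron markers to 44.0 to 46.4 and 71.7 to 79.0 FPKM (6 of 6 higher), and choroid plexus and ependyma markers to 1350 to 1437 and 639 to 717 FPKM (5 of 6 lower). Of the microglial markers 5 of 5 were called higher, of the astroglial ones 4 of 5, of the oligodendrocyte lineage ones 3 of 4 and of the Purkinje cell ones 3 of the 3 tested, and no marker was at 0 in all libraries. Their part in the differences given below was not tested. In such bulk samples a smaller number of cells of a type and less RNA per cell cannot be told apart.

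The 40S assembly genes as a set stayed close to their control level. Of the 39 members, all 39 passed the filter on low values, 1 (Utp20) was called higher, 1 (Emg1) was called lower and 37 were not called. The called share was 5.13%, against 19.1% of all genes tested, of which 13.4% were called higher and 5.74% lower. Differences ran from -0.21 to 0.24 with a median of 0.05, beside a median of 0.03 over all genes tested. The difference was above 0 for 26 members and below 0 for 13, a split that was 31 to 8 with TPM scaling and 21 to 18 with quantile normalization. As reported, 66.7% of members were above 0, against 57.9% of all genes tested and 56.2% of those within the members' range of levels. The authors' deposited table has 18 members above 0 and 21 below. The mean cKO level lay between 85.7% and 122.8% of control, with a median of 103.5%. Without adjustment, 9 of 39 members had p under 0.05, and so did 4846 of the 13538 genes tested, a larger share.

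**Figure D1:**
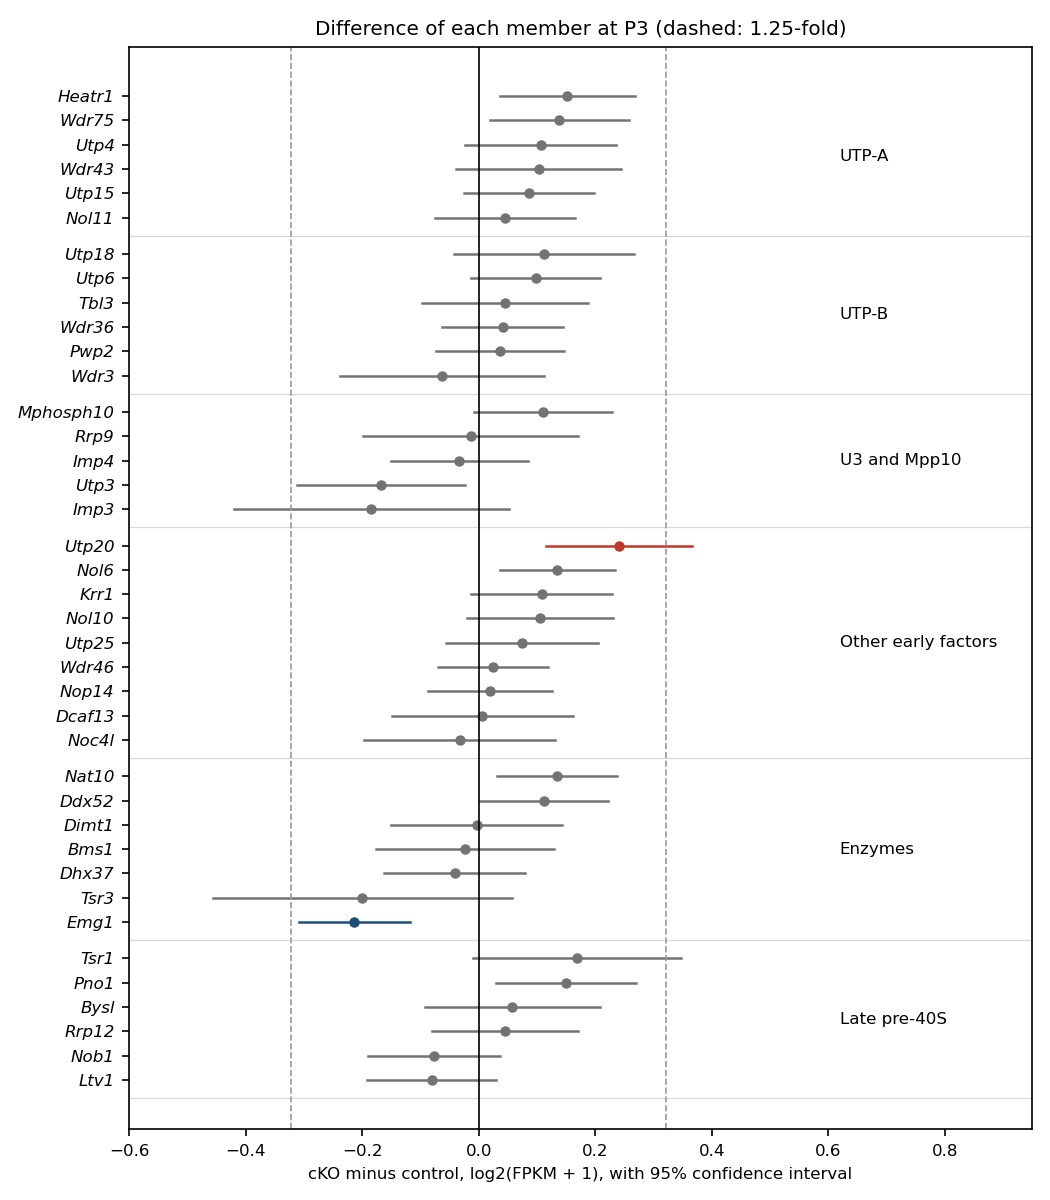
Difference of each of the 39 genes between cKO and control (cKO minus control, log2(FPKM + 1)), grouped by role; points are limma estimates from 3 libraries a group and bars are 95% confidence intervals. Dashed lines mark a 1.25-fold change of FPKM + 1. Utp20 (0.24) and Emg1 (-0.21), the coloured points, were called, and the remaining genes lie between -0.20 and 0.17.

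The 95% confidence interval lay within a 1.25-fold change of FPKM + 1 in either direction for 35 of 39 members. The same held for 63.3% of all genes tested and 75.2% of the 7905 tested genes within the members' range of levels. The interval lay within a 1.5-fold change of FPKM + 1 for 39 of 39 members, against 92.3% of all genes tested. A fold change of FPKM + 1 is smaller than that of FPKM, most of all at low levels. Of all genes tested, 18.0% differed by at least as much as Utp20, the member with the largest difference. The cKO libraries all lay above the control libraries for 9 members and all below for 1, and the groups overlapped for 29. That made 25.6% of members with no overlap, against 40.5% of genes tested (27.3% above, 13.2% below). Members had 713 to 6251 reads per library, and their coefficient of variation within a group had a median of 4.57% in control and 4.20% in cKO.

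**Figure D2:**
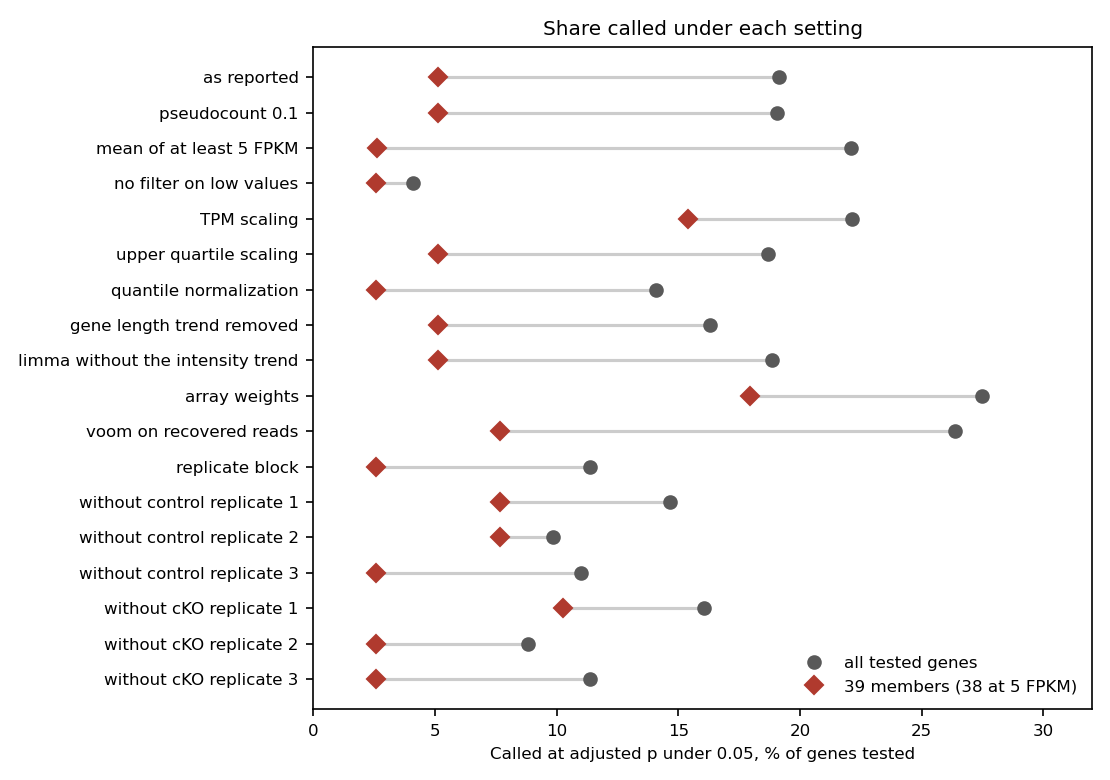
Percentage of genes called in either direction (adjusted p under 0.05) among the members (diamonds) and among all genes tested (circles), for the analysis as reported and for each of 17 alternatives (vertical axis). The members' 5.13% lies below the 19.1% of all genes tested as reported. The diamond lies left of the circle in every alternative, but close to it with no filter and without control replicate 2.

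Emg1, the methyltransferase that acts on a pseudouridine of 18S rRNA, was the member that fell. It measured 26.0, 27.01 and 25.5 FPKM in control and 22.6, 22.7 and 22.0 FPKM in cKO. Every cKO library was below every control library, at 85.7% of the control mean. The difference was -0.21 (SE 0.04, 95% confidence interval -0.309 to -0.118, limma adjusted p = 0.0119). Emg1 was called in 17 of 17 alternative analyses, with limma adjusted p between 0.000725 and 0.0453. In the mouse annotation (GENCODE M21, GRCm38), 7.21% of its exonic bases also belong to Lpcat3 on the opposite strand, and the sources used here do not say whether counting used the strand.

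Utp20, a very large helical repeat protein of the processome, was the member that rose, and it had the lowest control level of the 39. It measured 4.01, 4.02 and 3.71 FPKM in control and 4.63, 4.79 and 5.00 FPKM in cKO. The groups did not overlap, and the cKO mean was 122.8% of control. The difference was 0.24 (SE 0.05, 95% confidence interval 0.115 to 0.367, limma adjusted p = 0.0216). This call was less stable than that of Emg1, being made in 9 of 16 alternatives with limma adjusted p between 0.00545 and 0.0879. It was lost without control replicate 3 (limma adjusted p = 0.0714), without cKO replicate 2 (0.0722) and without cKO replicate 3 (0.0658).

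The authors' deposited table, which holds their own fold changes, lists 3 of the 39 members with an adjusted p under 0.05. That is 7.69%, against 23.1% of the 16021 genes whose deposited adjusted p is below 1. In the authors' deposited table Emg1 has a log2 fold change of -0.28 (adjusted p = 2.0e-06) and Utp20 one of 0.24 (adjusted p = 0.00469). The remaining gene there is Utp3, a partner of Mpp10 also known as Sas10, with -0.22 (adjusted p = 0.0115). Utp3 measured 40.03, 43.0 and 41.6 FPKM in control and 40.5, 35.2 and 35.1 FPKM in cKO. Replicates 2 and 3 of the cKO were below all controls, while cKO replicate 1 lay within the control range. The difference was -0.17 (SE 0.06) and was not called (limma adjusted p = 0.096). Without cKO replicate 1 the limma adjusted p of Utp3 was 0.0211, and over 17 alternatives it ranged from 0.0211 to 0.26. The authors' log2 fold changes of the members ran from -0.28 to 0.24, with a median of -0.0052 beside -0.0047 over the same 16021 genes.

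The 250 bases before the start of these 3 genes are shown because they are the members called by either analysis. They come from the RefSeq promoter table (GRCm38.p6), 5′ to 3′ on the gene's strand, at chr6:124712179-124712428 (minus strand) for Emg1, chr10:88826815-88827064 (minus strand) for Utp20 and chr5:88554212-88554461 (plus strand) for Utp3. Capitals mark the matches, on either strand, to the 6 motifs searched.
Emg1: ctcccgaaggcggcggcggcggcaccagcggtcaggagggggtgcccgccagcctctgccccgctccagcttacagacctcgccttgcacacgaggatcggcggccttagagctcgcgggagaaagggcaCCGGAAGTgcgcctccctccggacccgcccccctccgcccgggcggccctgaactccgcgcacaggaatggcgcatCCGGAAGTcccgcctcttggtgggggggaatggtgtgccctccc
Utp20: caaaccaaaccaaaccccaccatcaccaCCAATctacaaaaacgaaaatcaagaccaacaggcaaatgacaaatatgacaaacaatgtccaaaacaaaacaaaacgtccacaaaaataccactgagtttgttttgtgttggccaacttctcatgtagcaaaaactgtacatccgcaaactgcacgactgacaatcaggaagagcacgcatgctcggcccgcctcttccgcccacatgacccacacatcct
Utp3: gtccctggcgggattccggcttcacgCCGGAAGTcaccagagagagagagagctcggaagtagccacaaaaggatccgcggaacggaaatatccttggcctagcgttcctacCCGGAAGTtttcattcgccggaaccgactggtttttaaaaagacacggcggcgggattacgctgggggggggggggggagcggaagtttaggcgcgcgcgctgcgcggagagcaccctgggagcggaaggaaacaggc
The Emg1 and Utp3 sequences each hold 2 copies of CCGGAAGT, a motif of ETS factors. That of Utp20 holds a CCAAT box and no exact match to CCGGAAGT. Looser forms of the ETS motif were not searched. The GC content of the printed bases is 72.8% for Emg1, 61.6% for Utp3 and 44.8% for Utp20.

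Among the 39 members, 32 had a 300-base window (250 before to 50 after the start) in the RefSeq table. CCGGAAGT was found on either strand in 12 of 32 windows (37.5%), against 8.50% of the 9892 tested genes with a window and 4.00% of all 27025 windows. CACGTG, the E-box bound by MYC and its relatives, was found in 11 of 32 (34.4%), against 10.2% of tested genes and 7.24% of all windows. Utp20 was among these 11, with its E-box outside the bases printed above. The remaining motifs were at or near their share among tested genes or were rare. CCAAT, the box bound by NF-Y, was in 40.6% of member windows and 39.1% of tested genes, and the palindromic NRF1 motif in 6.25% and 2.07%. The palindromic ZBTB33 motif and the YY1 motif were found in 0 of 32 windows, against 1.09% and 1.67% of tested genes. Member windows had a median GC content of 59%, beside 61.3% in tested genes. These matches are a description of letters in the window and not evidence of binding.

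The UTP-A complex, which opens assembly and whose human counterpart also supports transcription by RNA polymerase I, was the group in which all differences, as reported, had the same sign. All 6 members had a difference above 0 (median 0.10), and 0 of 6 were called. Over the 17 alternatives Nol11 alone of the 6 changed sign, to -0.0167 with the length trend removed, and it is also below 0 (-0.0066) in the authors' deposited table. The largest was that of Heatr1, a long repeat protein, at 6.87, 7.06 and 6.75 FPKM in control and 7.34, 7.92 and 8.07 FPKM in cKO. Every cKO library was above every control library, but the difference of 0.15 was not called (limma adjusted p = 0.068). Wdr75, a WD-repeat protein, was at 11.8, 10.8 and 10.5 FPKM in control and 12.0, 12.5 and 12.3 FPKM in cKO, again without overlap, with a difference of 0.14. Wdr43 had the highest level, with 20.9, 19.0 and 18.6 FPKM in control against 20.2, 20.2 and 22.5 FPKM in cKO, and these groups overlapped. The smallest difference, 0.05, was that of Nol11, the animal partner of Utp4, at 11.7, 10.9 and 11.8 FPKM in control and 11.2, 11.9 and 12.4 FPKM in cKO. Utp15 was at 8.05, 8.21 and 7.69 FPKM in control and 8.48, 8.25 and 8.88 FPKM in cKO, groups that did not overlap by a narrow margin, with a difference of 0.09. Utp4 differed by 0.11 with overlap.

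The UTP-B complex, a tower of WD-repeat proteins that bridges UTP-A and the U3 snoRNP, had 5 differences above 0 and 1 below, with a median of 0.04. The authors' deposited table has 2 of these 6 above 0 and 4 below. None of the 6 was called, and the groups overlapped for all 6. Utp18, which in yeast recruits the exosome helicase, had the largest, 0.11, with 13.3, 12.5 and 13.3 FPKM in control and 12.7, 14.6 and 15.2 FPKM in cKO. That difference was 0.18 without cKO replicate 1 and 0.06 without cKO replicate 3. Wdr3 had the only negative one, -0.06, with 10.2, 10.3 and 9.28 FPKM in control and 8.45, 9.64 and 10.4 FPKM in cKO. The cKO values of Wdr3 spread below and above the controls, and without cKO replicate 1 the difference was 0.0108. Utp6 had the highest level, at 18.5, 17.8 and 17.2 FPKM in control and 18.3, 19.2 and 19.9 FPKM in cKO. Wdr36 had the lowest, at 6.71, 6.89 and 6.69 FPKM in control and 7.17, 6.75 and 7.05 FPKM in cKO. Tbl3 and Pwp2 differed by 0.05 and 0.04.

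The U3 and Mpp10 group held the most abundant members by FPKM and leaned the other way. Of its 5 genes, 1 had a difference above 0 and 4 below, with a median of -0.03, and 0 of 5 were called. That lean was not kept with TPM scaling, where 3 were above 0 and 2 below. Imp3, which with Imp4 helps U3 pair with the rRNA precursor, was at 35.4, 45.9 and 41.0 FPKM in control and 31.5, 37.9 and 37.6 FPKM in cKO. Its control libraries spread widely and overlapped the cKO, and the difference of -0.18 (SE 0.10) was not called (limma adjusted p = 0.23). It was -0.28 without control replicate 1, -0.10 without control replicate 2 and -0.10 without cKO replicate 1. Mphosph10, the Mpp10 protein that holds Imp3 and Imp4, had the only positive difference, 0.11, with 10.6, 11.6 and 11.0 FPKM in control and 12.1, 12.4 and 11.5 FPKM in cKO. Imp4 had the lowest level of the group and nearly equal values, at 5.73, 5.83 and 5.90 FPKM in control and 5.75, 5.35 and 5.93 FPKM in cKO. Rrp9, the WD-repeat protein specific to U3 among the box C/D particles, differed by -0.01. The Utp3 values are given above.

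The 4 core proteins that U3 shares with every box C/D snoRNP are not members, and their values are given because U3 is of that class. Snu13, which binds the kink-turn of the RNA, was called lower, from 53.5 ± 1.2 to 47.8 ± 2.2 FPKM (SD, n = 3; difference -0.16, limma adjusted p = 0.0485). Not called were Nop56 (-0.13), Fbl, the methyltransferase fibrillarin (-0.11), and Nop58 (-0.03).

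The 9 other early factors are the early processome proteins placed neither in the 3 groups above nor among the enzymes below. Besides Utp20, which was called higher, 7 had a difference above 0 and 1 below, and the median of the 9 was 0.07. This lean depended on the processing, from 5 above 0 and 4 below with voom to 9 above and 0 below with TPM scaling. For these 9 genes the authors' deposited table has 5 above 0 and 4 below. Nol6, the Utp22 protein, was at 18.3, 17.9 and 18.7 FPKM in control and 20.5, 20.6 and 19.4 FPKM in cKO. The groups did not overlap, yet the difference of 0.13 was not called (limma adjusted p = 0.0612). Noc4l, a partner of Nop14, had the only negative difference, -0.03, with 17.2, 18.7 and 19.4 FPKM in control and 19.9, 16.7 and 17.4 FPKM in cKO, and its sign changed in 3 of 17 alternatives. Wdr46 had the highest control level of this group, at 18.2, 18.5 and 18.9 FPKM in control and 18.3, 19.2 and 19.0 FPKM in cKO. Dcaf13, whose yeast counterpart is Sof1, measured 5.56, 4.99 and 4.57 FPKM in control and 5.22, 4.95 and 4.98 FPKM in cKO, a difference of 0.01 whose sign changed in 5 of 17 alternatives. Nol10 was at 11.1, 11.5 and 10.9 FPKM in control and 11.7, 11.6 and 13.0 FPKM in cKO, without overlap, with a difference of 0.11. Krr1, Utp25 and Nop14 differed by 0.11, 0.07 and 0.02.

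The 7 enzymes include the helicases and the GTPase that remodel the particle and the enzymes that modify 18S rRNA. Emg1 was called lower, 0 were called higher, and differences were above 0 for 2 and below 0 for 5, with a median of -0.02. With TPM scaling, 4 were above 0 and 3 below. Nat10, the cytidine acetyltransferase, had the largest positive difference, 0.13 (limma adjusted p = 0.0699), with 7.79, 8.35 and 7.89 FPKM in control and 8.90, 8.86 and 8.90 FPKM in cKO. The groups did not overlap, and the cKO libraries were almost equal. Ddx52, a DEAD-box protein, was at 20.4, 19.5 and 18.3 FPKM in control and 21.2, 21.2 and 20.7 FPKM in cKO, also without overlap, with a difference of 0.11. By the positions in the deposited table Ddx52 lies 0.948 Mb from Znhit3 on chromosome 11, the nearest of 6 members on that chromosome. Tsr3, which adds the aminocarboxypropyl group to 18S rRNA, had a negative difference close to that of Emg1 but far more spread, -0.20 (SE 0.11), with 21.7, 25.6 and 20.9 FPKM in control and 16.5, 22.2 and 20.5 FPKM in cKO. Its groups overlapped, and it was not called (limma adjusted p = 0.24). Dimt1, the dimethyladenosine transferase, had the lowest control level of the enzymes and the difference closest to 0, with 7.26, 7.18 and 6.89 FPKM in control and 6.82, 6.65 and 7.85 FPKM in cKO. Bms1, the GTPase, and Dhx37, the helicase that releases U3, differed by -0.02 and -0.04.

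The 6 late pre-40S factors, which stay on the particle after the processome has come apart, had 4 differences above 0 and 2 below, with a median of 0.05, and 0 of 6 were called. With quantile normalization and without cKO replicate 1, 3 were above 0 and 3 below. For these 6 genes the authors' deposited table also has 3 above 0 and 3 below. Pno1, which sits at the end of 18S rRNA until the last cut, was the most abundant, at 22.2, 22.8 and 24.2 FPKM in control and 24.8, 25.04 and 27.2 FPKM in cKO. Every cKO library was above every control library, with a difference of 0.15 (limma adjusted p = 0.0795). Nob1, the endonuclease that makes that cut, had the opposite sign, -0.08. Tsr1, a GTPase-like protein whose place on the particle keeps translation factors off, had the largest difference, 0.17 (limma adjusted p = 0.16), with 7.79, 9.17 and 7.23 FPKM in control and 8.87, 9.46 and 9.12 FPKM in cKO. Control replicate 2 of Tsr1 lay among the cKO values, and without it the difference was 0.25 and was called (limma adjusted p = 0.0378). Without control replicate 3 the difference was 0.10, and over 17 alternatives the limma adjusted p of Tsr1 ranged from 0.0378 to 0.392. Ltv1, which leaves the particle once phosphorylated, had the most negative one, -0.08, with 19.1, 17.7 and 17.6 FPKM in control and 17.6, 16.9 and 16.7 FPKM in cKO. Rrp12, an export factor, was the least abundant, at 7.02, 7.34 and 6.54 FPKM in control and 7.14, 7.01 and 7.501 FPKM in cKO, and Bysl differed by 0.06.

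**Figure D3:**
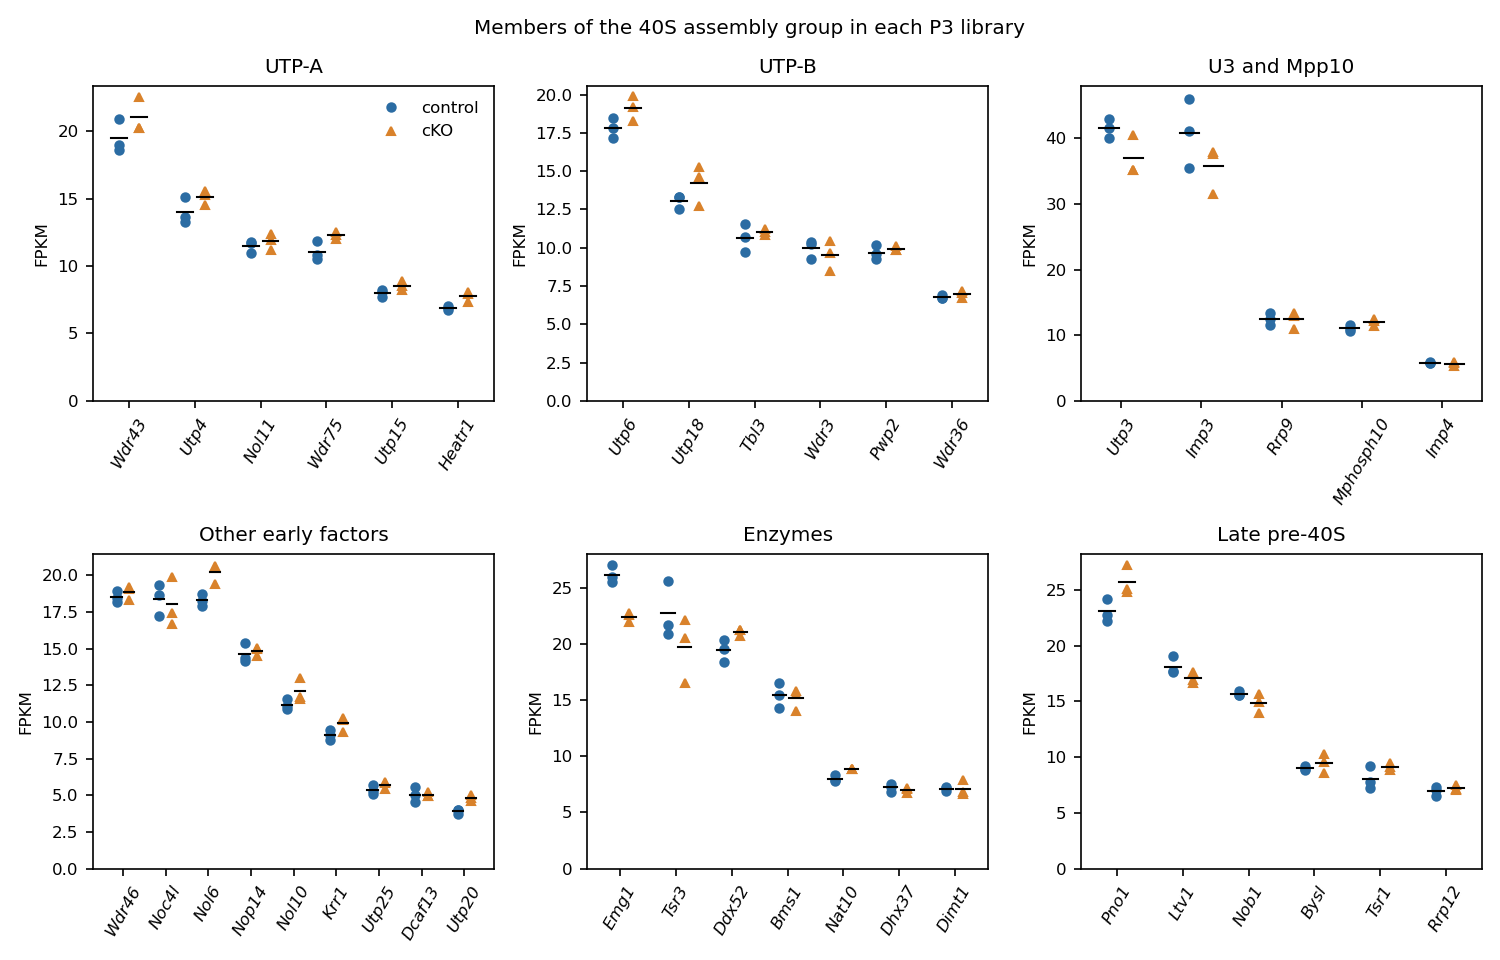
Level of each of the 39 genes in each of the 6 libraries (FPKM, vertical axis from 0), in 1 panel per role; circles are control libraries, triangles cKO libraries and bars group means. The groups overlap for 29 of the 39 genes.

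By library, the summed FPKM of the 39 genes was 538, 555 and 533 in control and 535, 547 and 552 in cKO, which overlapped (541.9 ± 11.7 against 544.3 ± 8.8, SD, n = 3). Their share of reads was 0.202% ± 0.0040 in control and 0.208% ± 0.0029 in cKO (SD, n = 3). The deviations were not spread evenly over the libraries. Control replicate 3, the most deeply sequenced, was the lowest of the 6 libraries for 16 members. The least deeply sequenced, cKO replicate 3, was the highest for 15. These counts were not made over all genes tested. Over those genes the median log2(FPKM + 1) was also lowest in control replicate 3 (3.005). It was 3.086 in cKO replicate 3 and highest, 3.097, in cKO replicate 2. Leaving out control replicate 3 left 1 member called and leaving out cKO replicate 3 left 1, which was Emg1 in both cases and also without cKO replicate 2, while 4 members were called without cKO replicate 1. The part of depth was not tested.

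Levels in the control libraries spanned 10.6-fold on the FPKM scale, from 3.92 FPKM for Utp20 to 41.5 FPKM for Utp3. The median control level of the members was 11.2 FPKM, against 7.05 FPKM over all genes tested, and members ranked between the 32.8 and 91.2 percentiles of tested genes. Utp3 and Imp3 led and did not differ beyond their spread (41.5 and 40.8 FPKM), followed by Emg1 (26.2 FPKM) and Pno1 (23.0 FPKM). Each of these steps, from Imp3 to Emg1 and from Emg1 to Pno1, separated control ranges that did not overlap. At the other end, Dcaf13 (5.04 FPKM) stood above Utp20 without overlap. Between neighbours in the order, control ranges overlapped in 30 of 38 pairs.

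These levels depend on the length used. For 38 of 39 members the deposited length equals the union of all annotated exons in GENCODE M21, of which coding sequence made up 10.2% to 94.5% (median 53.8%). Computed instead over the length of a coding transcript, Emg1 had the highest control level, 117 in the same units, since its coding transcript of 1034 bases is part of 4632 bases counted. Dcaf13, of which the coding transcript makes up 14.3% of the counted length, moved from rank 38 to rank 4 at 35.2. Utp20 remained the lowest on that scale, at 4.53. Reads were not assigned anew, so these values are an upper bound where reads fall outside the coding transcript.

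**Figure D4:**
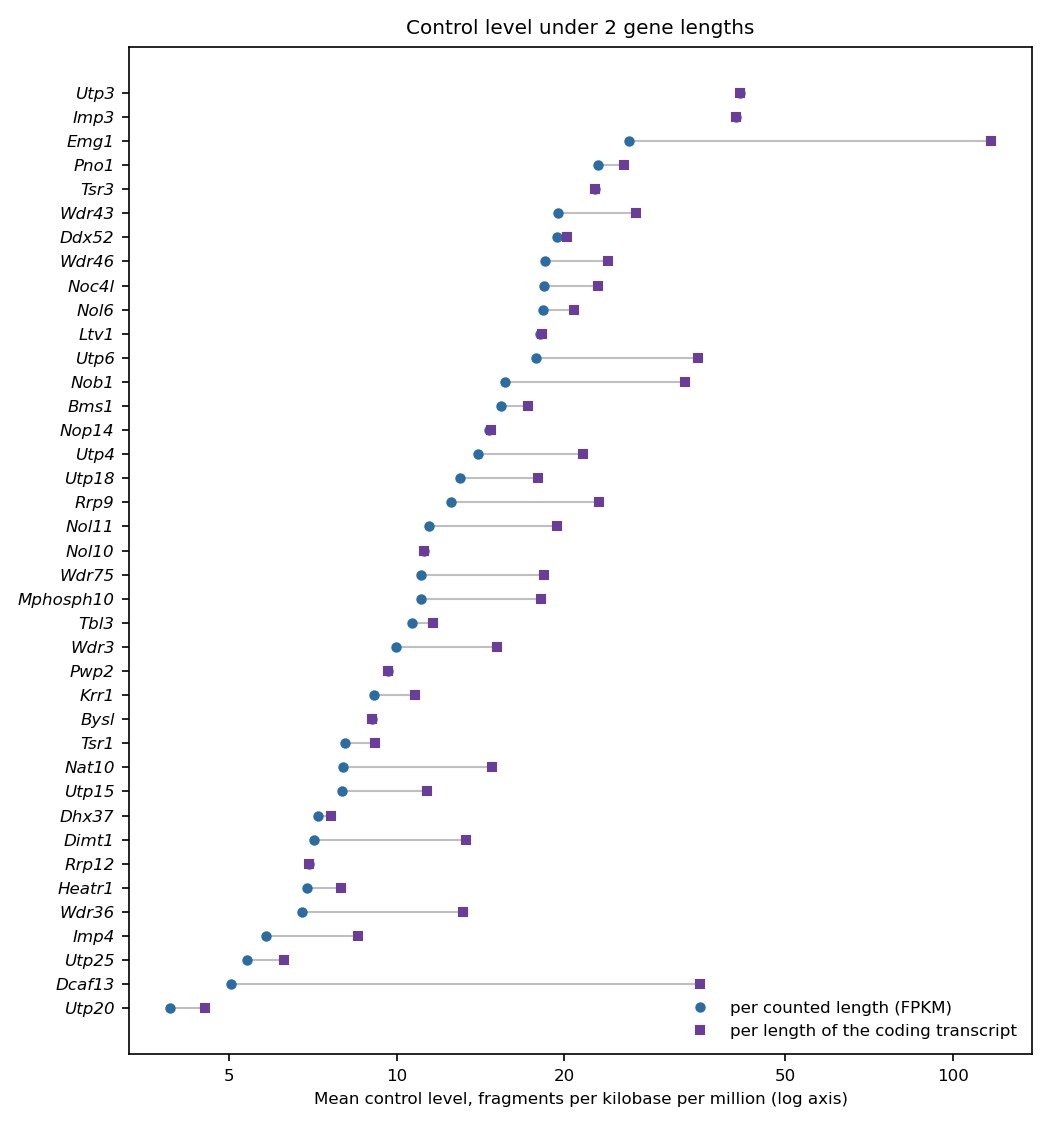
Control level of each gene (log axis) per kilobase of the deposited gene length (circles, FPKM) and per kilobase of its coding transcript (squares); each point is the mean of 3 control libraries and genes are ordered by FPKM. Emg1 reaches 117 and Dcaf13 moves from 5.04 to 35.2.

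Longer members tended to have higher differences between the groups, and libraries within a group differed with length too. Over the 39 members the correlation of the difference with the log2 of the deposited length was r = 0.489 (Spearman's rho 0.313), and over all 13538 genes tested it was 0.194 (rho 0.264). These are correlations across genes that share the 6 libraries, and genes are not independent replicates. Between single libraries of 1 group, the same correlation was -0.414 for control replicate 2 minus 1, -0.412 for control replicate 3 minus 1 and -0.282 for cKO replicate 2 minus 1. It was weaker in the remaining pairs, at 0.0619 for control replicate 3 minus 2. For cKO replicate 3 minus 1 it was -0.144, and for cKO replicate 3 minus 2 it was 0.183. Between single libraries of different groups it ran from 0.0629 (cKO replicate 2 minus control replicate 1) to 0.569 (cKO replicate 1 minus control replicate 3). Imp3 (924 bases) and Tsr3 (1192 bases) are the members farthest from the median length on the log2 scale. Without Imp3 and Tsr3, r was 0.278 over 37, so that much of the relation rests on these 2 genes. The longest members, Dcaf13 and Utp20, were kept. The 4 members under 2 kb had a median difference of -0.18, beside -0.06 for all tested genes of that length. The 21 members from 2 to 5 kb had a median of 0.05 (all tested 0.01), and the 14 of 5 kb and over one of 0.06 (all tested 0.08). With the length trend over all genes removed, r was 0.121, the members' median difference was 0.0015, Utp20 was not called (limma adjusted p = 0.0813), Pno1 was called, and Emg1 was still called lower. The part of length in the differences was otherwise not tested.

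**Figure D5:**
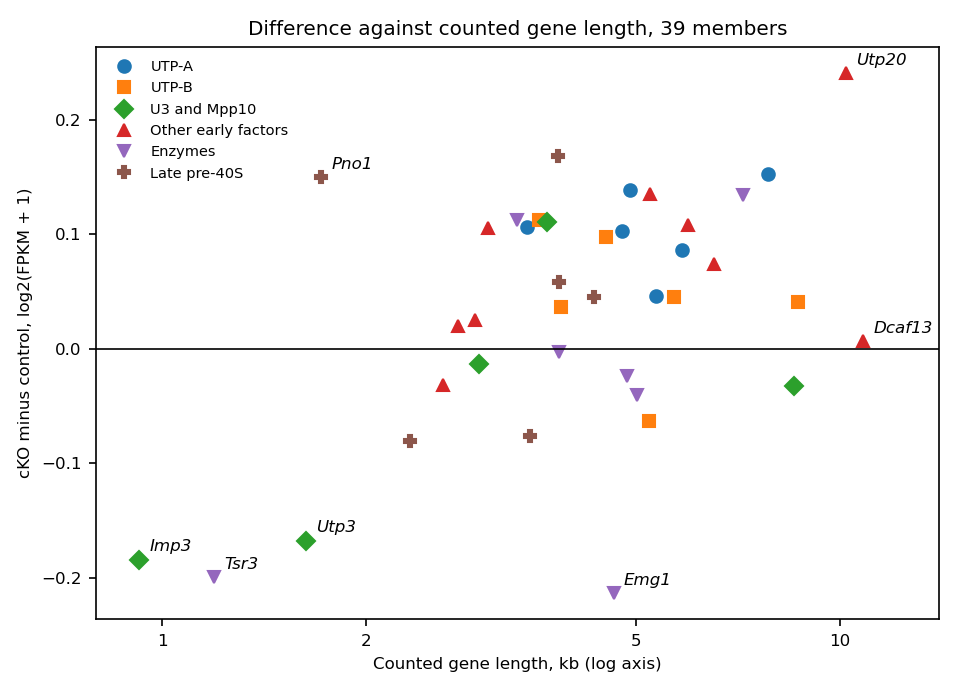
Difference between cKO and control (log2(FPKM + 1)) of the 39 genes against the deposited gene length (log axis, kb), with colours and symbols for the roles. Imp3 and Tsr3 lie at the short end with differences of -0.18 and -0.20, and Utp20 at the long end with 0.24.

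Several members share sequence with a neighbour. In GENCODE M21, 16 members share exonic bases with a gene on the opposite strand and 23 with none, and no member shares exonic bases with a gene on its own strand. The overlap is at least 10% for 5 of them: Tbl3 (37.3%, with Noxo1), Tsr1 (32.3%, with Srr), Dimt1 (31.9%, with Kif2a), Wdr3 (16.2%, with Gdap2 and Spag17) and Tsr3 (11.7%, with Baiap3). The library protocol marks strand, but the use of strand in counting is not given in the sources used here, so the values of these 5 are uncertain. Utp20, Utp3 and Imp3 have no such overlap.

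In the related gene lists, 10.8% of other small subunit genes, 8.47% of large subunit factors and 6.67% of RNA polymerase I genes were called, all below the 19.1% of genes tested. Of 38 other small subunit genes, 37 were tested, 2 were called higher and 2 lower, and 12 had a difference above 0 and 25 below, with a median of -0.06. The smallest p was that of Trmt112, the activating partner of several methyltransferases including the 18S rRNA enzyme Bud23, which fell from 50.4 ± 3.8 to 38.6 ± 1.0 FPKM (SD, n = 3; difference -0.38, limma adjusted p = 0.0053). Ddx21, a nucleolar helicase, rose from 26.5 ± 0.35 to 30.5 ± 1.1 FPKM (SD, n = 3; limma adjusted p = 0.018), and Riok2, a kinase of late pre-40S particles, rose by 0.17 (limma adjusted p = 0.040). Of 59 large subunit assembly factors 4 were called higher and 1 lower, with a median of -0.01. Ddx31, a helicase, fell by 0.23, and Mak16 and Rrs1 rose by 0.16 and 0.18. Of 15 RNA polymerase I genes 0 were called higher and 1 lower, Polr1h, a small subunit of the enzyme, which fell from 37.1 ± 1.7 to 30.5 ± 1.1 FPKM (SD, n = 3; limma adjusted p = 0.0084). The counts of the longer lists moved when a library was left out. Without cKO replicate 1 there were 8 other small subunit genes called, without cKO replicate 2 there were 2, and without control replicate 2, control replicate 3 or cKO replicate 3 there was 1. Large subunit factors called were 3 without cKO replicate 1, 0 without control replicate 2 or cKO replicate 2, and 1 with any other single library left out. The difference between these lists and the members was not tested.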

How the data were processed

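Poly(A) RNA was sequenced as paired ends, per the labels' protocols. The deposited table of the authors gives FPKM per gene and library with a gene length, and their own comparison as a mean signal, log2 fold changes with standard errors, a test statistic (a score) and p-values. Cutadapt 1.9, HISAT2 2.2.1, StringTie 2.1.6, DESeq2, edgeR and mm10 are named in the submitters' processing notes, without their roles. The annotation is not given in the sources used here, and positions in the table mostly differ from GRCm38 (614 of 29560 shared genes agree), so the build of the deposited positions is not settled. In each library, FPKM multiplied by length was a whole multiple of a single step for 100% of values (within 0.02 reads). That step, found from the same values, was taken as 1 read. The reads so recovered supplied 1 alternative and, summed over genes, the depths.

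Columns named WT were taken as control and ZM as cKO, the only groups of that table. Differences on log2(FPKM + 1) were fitted in R 4.3.3 by limma 3.58.1, using an intensity trend without covariates, over genes averaging 1 FPKM or more, and p-values were adjusted by the Benjamini-Hochberg method. The script was tested on simulated data. The members, lists and tests were chosen with earlier results of these data known. Values in every library are given for members called by limma or in the authors' table and for those with the highest or lowest level or the largest or smallest difference of their role group, plus members whose groups did not overlap. From each related list up to 3 called genes with the smallest p are named, and the core proteins of U3 were added. Replicates of a group differed by more than sampling noise. Alternatives covered the pseudocount, the filter, scaling, the length trend, the model, a replicate block and leaving out each library.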

Additional observations from a re-analysis of the deposited data

How the results depend on the processing

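Over 17 alternatives, Znhit3 and Emg1 kept their direction and their call, and the members' called share stayed below that of all genes tested. The shares were close with no filter (2.56% against 4.09%) and without control replicate 2 (7.69% against 9.85%). All alternatives reuse the same libraries. Counts called were small and moved easily. The members called higher (1) were 0 with a filter of 5 FPKM, with no filter, with quantile normalization and with the replicate block. They were 5 with TPM scaling and with array weights. With the filter of 5 FPKM Utp20 was not tested, which left 38 members. Members called lower (1) were 2 with array weights and with voom. The total (2) was 1 with the 5 FPKM filter, no filter, quantile normalization and the block, 6 with TPM scaling and 7 with array weights. The other small subunit genes called (4) were 2 with no filter and without the intensity trend, 1 with the block, 8 with the length trend removed, 9 with array weights and 11 with voom. Large subunit factors called (5) were 2 with no filter, 3 with quantile normalization, 8 with TPM scaling and array weights, 9 with voom and 0 with the replicate block, a block that left 1073 genes called higher and 469 lower overall. RNA polymerase I genes called (1) were 2 with TPM scaling and with the length trend removed, 4 with array weights and 3 with voom. The cause was not tested. With the length trend removed, the members' median difference was 0.0015 and the correlation with length 0.121, and with quantile normalization that correlation was 0.263.

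Leaving out 1 library at a time gave 0 to 2 members called higher, 1 to 2 lower and 1 to 4 in total, 1 to 8 other small subunit genes, 0 to 3 large subunit factors and 1 to 1 RNA polymerase I genes. The counts were highest for members and other small subunit genes without cKO replicate 1. The median difference ranged from 0.0398 to 0.0587, the length correlation from 0.391 to 0.549 and the Znhit3 difference from -0.962 to -0.886. Noc4l ranged from -0.1021 to 0.0171 and Wdr3 from -0.1257 to 0.0108 over these. Of the 39 members, 23 kept the sign of their difference in every alternative that tested them and 16 did not, the latter with differences as reported from -0.06 to 0.07. Of the members followed singly, sign changes were Noc4l with TPM scaling (0.0066), without control replicate 3 (0.0028) and without cKO replicate 2 (0.0171), Nol11 with the length trend removed (-0.0167) and Wdr3 without cKO replicate 1 (0.0108). Over all genes tested, calls split into 1813 higher and 777 lower, and into 2448 and 549 with TPM scaling, 1083 and 823 with quantile normalization, 1167 and 1038 with the length trend removed and 1933 and 1635 with voom.

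Libraries with the same replicate number deviated together in none of the 3 pairs (correlations -0.0244, 0.0356 and -0.0972), so the numbers were not taken to pair the samples.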

Other observations

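Imp3 and Utp3, the only members annotated with a single exon, had differences of -0.18 and -0.17, and neither was called. The 304 tested protein-coding genes of a single exon had a median difference of 0.03. Imp3 and Utp3 are short, at 924 and 1629 bases, beside a median of 2545 bases for those 304 genes. All tested genes under 2 kb had a median difference of -0.06. Wdr43 and Tsr1 host snoRNAs within the gene, Snord53 and Snord92 in Wdr43 and Snord91a in Tsr1, and their differences were 0.10 and 0.17.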
